A study of Mus musculus with 12 samples.

Results

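Transcripts of 10 genes of the AP-1 and immediate early group, *Fos*, *Fosb*, *Fosl2*, *Jun*, *Junb*, *Jund*, *Atf3*, *Egr1*, *Ier2*, and *Dusp1*, were followed through 12 RNA-seq samples of cultured murine BrafV600E melanoma cells. They were chosen by name, as 10 of the 30705 gene names for which levels were given, and all 10 passed the filter on low values (a mean of 1 RPKM or more), as did 11282 genes in all. RPKM are reads scaled by transcript length and by library size, so that levels can be compared between genes. The cells came from a C57BL/6 mouse with the alleles Braf+/LSL-V600E, Tyr::CreERT2+/o, and p16INK4a-/-. Every sample, controls included, therefore carries the mutant Braf allele, a Cre transgene driven by the tyrosinase promoter of melanocytes, and the loss of p16INK4a. The 4 groups were scramble control cells and cells in which *ptgs1*, *ptgs2*, or *ptges* was knocked out by CRISPR/CAS9, with 3 samples each. Their products are the cyclooxygenases COX-1 (*ptgs1*) and COX-2 (*ptgs2*) and the terminal synthase mPGES-1 (*ptges*), which lead from arachidonic acid to prostaglandin E2. Per the methods of the study, the knockout cells are subclones derived by limiting dilution after selection in puromycin, and all groups were grown in medium with fetal bovine serum, without a timed stimulus. The study describes the samples as subclones in one place and as independent samples in another. The p-values therefore measure the spread between these samples, which may be partly technical, and differences between clones cannot be told apart from effects of the deleted gene.

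AP-1 is a transcription factor made of pairs of proteins joined through leucine zippers. Jun proteins pair with each other or with Fos proteins, whereas Fos proteins need a Jun partner, and *Atf3* codes for a related zipper protein that is induced by stress. Immediate early genes are transcribed within minutes of a growth factor, serum, or stress signal without new protein synthesis, and their mRNAs are mostly short-lived. Signals through the ERK kinases, which oncogenic Braf drives, and through cyclic AMP and the factor CREB, which receptors of prostaglandin E2 can raise, both reach their promoters. *Dusp1* codes for a phosphatase that removes phosphates from MAP kinases and so limits the signal that induces it.

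The targeted gene was lowest in its own knockout in every case. *Ptgs1* was at 14.30 to 16.91 RPKM in *ptgs1*-KO samples and at 138.31 to 172.87 RPKM in the other samples. *Ptgs2* was at 76.13 to 84.62 RPKM in *ptgs2*-KO samples and at 501.52 to 807.06 RPKM elsewhere, and *Ptges* was at 34.83 to 41.01 RPKM in *ptges*-KO samples and at 51.50 to 79.82 RPKM elsewhere. The *ptgs1*-KO cells also had less of the other targeted genes, with *Ptges* at 70.2% and *Ptgs2* at 78.5% of the scramble mean. All 3 targeted genes were lower in *ptgs1*-KO than in scramble cells by the limma test described further on. The study reports less *ptges* mRNA in *ptgs1*-KO cells, but not less *ptgs2* mRNA. Of 7 melanocyte lineage markers, 4 (*Sox10*, *Mlana*, *Dct*, and *Tyrp1*) were listed at 0 in all 12 samples, and the 7 together summed to 1.92 to 5.16 RPKM, so that the transcripts give little sign of the melanocyte lineage. Immune markers summed to at most 2.08 RPKM, endothelial markers to at most 0.170 RPKM, and epithelial markers to at most 1.09 RPKM. Among 5 fibroblast markers, *Dcn* and *Lum* were at 0 in all samples. The list summed to 8.34 to 8.89 RPKM in scramble and 10.8 to 12.5 in *ptgs1*-KO samples. Its sum was 3.78 to 4.98 in *ptgs2*-KO and 5.03 to 6.01 RPKM in *ptges*-KO samples. Most of each sum was *Pdgfra*, which averaged 8.08, 10.4, 3.77, and 5.36 RPKM in the same order of groups. *Pdgfra* was the only marker of this list that passed the filter on low values, so these sums mainly describe that gene. The depth was estimated at 13.3 to 17.1 M reads per sample, and the ribosomal RNA entry *Rn45s* ranged from 2169 to 47672 RPKM, with its highest value in *ptgs1*-KO replicate 3.

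The sequences before the transcription starts of *Fos*, *Fosb*, and *Dusp1* are shown because these 3 genes fell in both *ptgs2*-KO and *ptges*-KO cells, as described further on. They are from RefSeq on GRCm38.p6, begin 250 bases before the start, and are written 5′ to 3′ on the strand of the gene, with bases inside an annotated exon left out. Capitals mark the core of the cyclic AMP response element (CRE) bound by CREB and ATF proteins, either its short form, TGACG, or the complete palindrome, TGACGTCA, and in *Fos* also the TATA box, TATAAA.
Fos, chr12:85473640-85473889, plus strand: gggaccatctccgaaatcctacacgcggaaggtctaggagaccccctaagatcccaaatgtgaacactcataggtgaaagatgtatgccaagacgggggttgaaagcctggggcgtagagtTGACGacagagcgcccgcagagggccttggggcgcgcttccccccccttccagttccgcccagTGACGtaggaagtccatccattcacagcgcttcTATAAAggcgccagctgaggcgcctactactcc
Fosb, chr7:19310052-19310295, minus strand: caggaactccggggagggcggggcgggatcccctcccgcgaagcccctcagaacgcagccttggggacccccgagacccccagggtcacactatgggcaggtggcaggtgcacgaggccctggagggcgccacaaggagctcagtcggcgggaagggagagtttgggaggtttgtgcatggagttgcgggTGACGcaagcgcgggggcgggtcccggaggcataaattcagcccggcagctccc
Dusp1, chr17:26508520-26508722, minus strand: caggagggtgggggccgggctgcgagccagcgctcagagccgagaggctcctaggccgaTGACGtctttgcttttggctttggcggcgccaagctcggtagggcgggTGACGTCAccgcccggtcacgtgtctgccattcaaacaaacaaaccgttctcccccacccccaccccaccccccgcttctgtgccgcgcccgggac

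In the *Fos* sequence the short CRE core stood at 129 to 125 and at 66 to 62 bases before the start, and the TATA box at 33 to 28 bases. In *Fosb* the short core stood at 60 to 56 bases. In *Dusp1* the complete palindrome lay 143 to 136 bases before the start, overlapping a short core on each strand, and a further short core lay at 191 to 187 bases. Both strands were searched in the 250 bases before the start, also for the AP-1 site TGANTCA and for the CArG box bound by serum response factor. RefSeq entries were found for 8 of the 10 genes, and the short core was present on either strand in *Fos*, *Fosb*, *Junb*, *Atf3*, and *Dusp1*. Over 32851 mouse promoter windows of the same length, 17.8% held the short core, 1.55% the palindrome, 6.75% the AP-1 site, 1.47% a CArG box, and 12.4% the TATA box. The AP-1 site and the CArG box had no match in the windows of the 8 genes, which says only that these letters are not there. Matches are descriptions of the sequence, and binding was not measured.

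Each pair of groups was compared with limma on log2(RPKM + 1), and a gene passed the test if its p, adjusted by the Benjamini-Hochberg method across the tested genes, was under 0.05. Over the 4 groups, 5 of the 10 genes differed by the F test (*Fos*, *Fosb*, *Jun*, *Egr1*, and *Dusp1*), beside 38.6% of all genes tested. The adjusted p was 6.8e-07 for *Fos*, 1.5e-06 for *Fosb*, 4.4e-04 for *Egr1*, 7.0e-04 for *Dusp1*, and 0.0075 for *Jun*. For *Fosl2*, *Junb*, *Atf3*, *Ier2*, and *Jund* it lay between 0.0862 and 0.365.

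Deletion of *ptgs1* was followed by no change that passed the test in the group. Of the 10 genes, 0 were higher and 0 were lower in *ptgs1*-KO than in scramble cells by limma, beside 4.65% of all genes higher and 4.61% lower, and at an unadjusted p under 0.05 the count was also 0. The values of the 2 lines overlapped for every gene of the 10. For the count at an unadjusted p and for the overlap, shares over all genes were not computed. *Fos* came nearest, at 119% of the scramble mean, with a log2 fold change of 0.24 (95% interval −0.01 to 0.49, adjusted p = 0.235). Deletion of *ptgs2* was followed by lower *Fos*, *Fosb*, and *Dusp1*. With 3 of the 10 genes lower and 0 higher, the count stands beside 5.17% of all genes lower and 5.97% higher. In *ptges*-KO cells *Fos*, *Fosb*, *Jun*, and *Dusp1* fell and *Egr1* rose, so that 4 genes were lower and 1 was higher, beside 14.4% of all genes lower and 11.9% higher. The median log2 fold change of the 10 genes was −0.07 in *ptgs1*-KO, −0.20 in *ptgs2*-KO, and −0.16 in *ptges*-KO cells, and that of all genes tested was 0.01, 0.01, and −0.03. The 3 comparisons share the scramble samples.

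**Figure D1:**
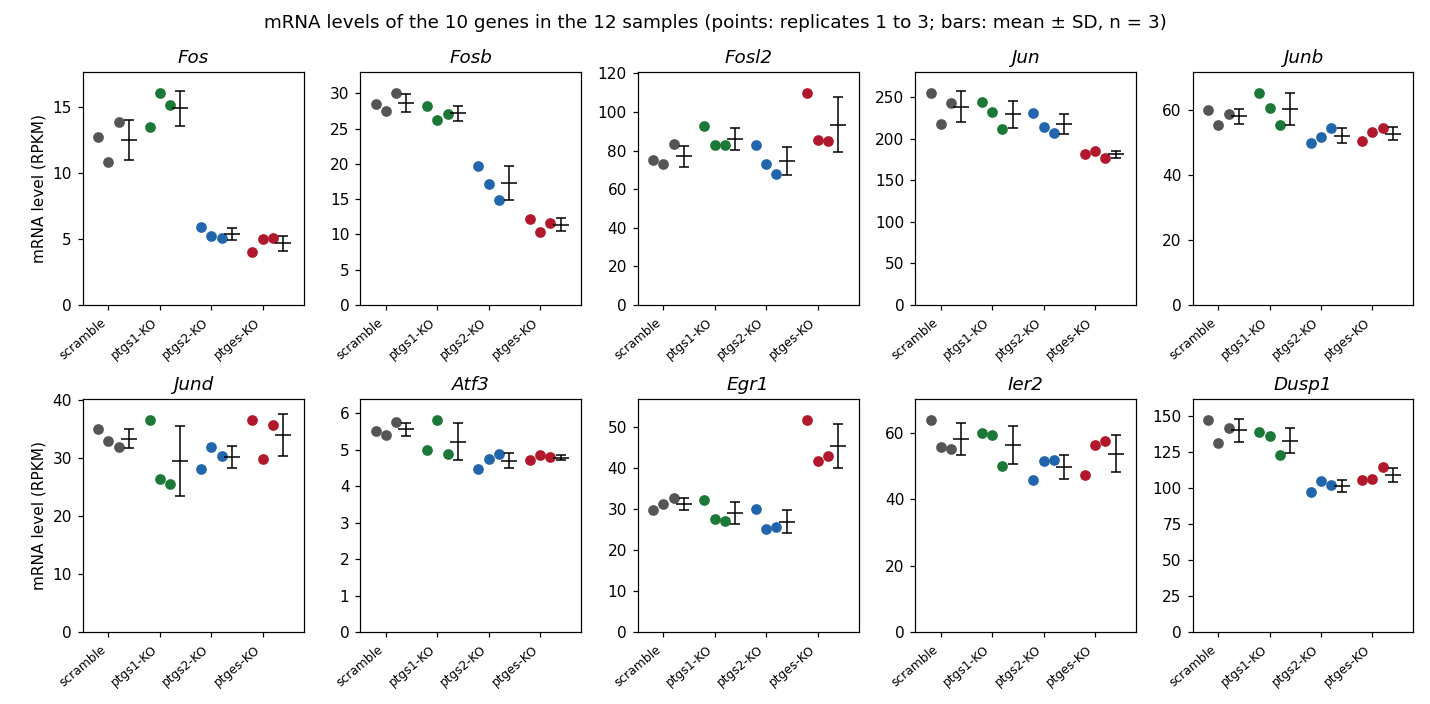
mRNA levels of the 10 genes in RPKM (vertical axes, linear from 0, a scale for each gene) in the 4 lines (horizontal axes); points are samples in the order of replicates 1 to 3, and the bars beside them are mean ± SD (n = 3). The 3 *ptgs2*-KO and 3 *ptges*-KO samples of *Fos* lie between 4.02 and 5.90 RPKM, below every scramble and *ptgs1*-KO sample, whereas the ranges of the scramble and *ptgs1*-KO points overlap for every gene.

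*Fos* (chr12:85473890-85477273, plus strand, GENCODE M21 on GRCm38, as for the positions that follow) codes for c-Fos, the founding member of its family. Its level was 12.71, 10.87, and 13.87 RPKM in scramble samples 1 to 3 and 13.48, 16.06, and 15.15 RPKM in *ptgs1*-KO samples. It was 5.90, 5.23, and 5.06 RPKM in *ptgs2*-KO and 4.02, 4.97, and 5.07 RPKM in *ptges*-KO samples. The 6 samples of the last 2 lines thus lay below all others, and these 2 lines overlapped each other. The group mean was 43.2% of that of scramble in *ptgs2*-KO cells, with a log2 fold change of −1.07 ± 0.12 (SE, adjusted p = 6.6e-05), and 37.5% in *ptges*-KO cells (−1.24 ± 0.12, adjusted p = 8.5e-06). The difference of *ptges*-KO from *ptgs2*-KO cells was −0.17, with a 95% interval from −0.42 to 0.08 (adjusted p = 0.346). RNA from whole cultures was measured, and fewer cells with *Fos* mRNA cannot be told apart from less of it in each cell.

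*Fosb* (chr7:19302696-19310051, minus strand) codes for FosB, another Fos protein of the immediate early response. It was measured at 28.46, 27.44, and 30.03 RPKM in scramble and at 28.24, 26.17, and 27.09 RPKM in *ptgs1*-KO samples. In *ptgs2*-KO samples it stood at 19.70, 17.22, and 14.89 RPKM and in *ptges*-KO samples at 12.15, 10.38, and 11.58 RPKM. The levels formed 3 steps without overlap, with scramble and *ptgs1*-KO samples on the highest, *ptgs2*-KO in the middle, and *ptges*-KO lowest. Relative to the scramble mean, *ptgs2*-KO cells held 60.3% (log2 fold change −0.71 ± 0.10, adjusted p = 6.4e-04) and *ptges*-KO cells 39.7% (−1.26 ± 0.10, adjusted p = 1.7e-06). The step between *ptgs2*-KO and *ptges*-KO cells passed the test as well (−0.56 ± 0.10, adjusted p = 0.00198). *Fosb* values were most spread in *ptgs2*-KO cells, where the highest sample was 1.32 times the lowest.

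*Fosl2* (chr5:32135801-32157842, plus strand) codes for Fra-2, a Fos protein without the strong activation domain of c-Fos. Its levels were 75.17, 73.04, and 83.30 RPKM in scramble, 92.87, 82.91, and 82.76 in *ptgs1*-KO, 82.69, 73.10, and 68.16 in *ptgs2*-KO, and 109.86, 85.77, and 85.04 RPKM in *ptges*-KO samples. All 3 *ptges*-KO samples were above the scramble samples, but one of them, replicate 1, stood well apart from the other two. The log2 fold change was 0.27 with a 95% interval from 0.04 to 0.50, and it did not pass the test (adjusted p = 0.0840). It passed with the replicate number as a block (adjusted p = 0.0480) and with trends of transcript length and GC content removed (0.35, adjusted p = 0.00135), whereas without *ptges*-KO replicate 1 it was 0.15 (adjusted p = 0.290).

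The make-up of the Fos family was set out from the same levels, as a description without a test of its own. *Fos* and *Fosb* together made up 13.7% ± 0.529 (SD, n = 3) of the summed RPKM of *Fos*, *Fosb*, *Fosl1*, and *Fosl2* in scramble cells and 14.3% ± 0.987 in *ptgs1*-KO cells. The same share was 7.78% ± 0.576 in *ptgs2*-KO and 5.00% ± 0.448 in *ptges*-KO cells, and the samples of these 2 lines overlapped neither each other nor those of scramble and *ptgs1*-KO cells. The summed level of the family averaged 300 ± 9.74 RPKM in scramble, 295 ± 19.5 in *ptgs1*-KO, 291 ± 16.5 in *ptgs2*-KO, and 323 ± 26.5 RPKM in *ptges*-KO cells, with samples from 279 to 353 RPKM. Most of it was *Fosl1*, which codes for Fra-1, a Fos protein kept high by ERK signaling. *Fosl1* averaged 182 ± 1.83 RPKM in scramble and 213 ± 12.5 RPKM in *ptges*-KO cells, and this increase passed the test (log2 fold change 0.23 ± 0.07, adjusted p = 0.0404).

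**Figure D2:**
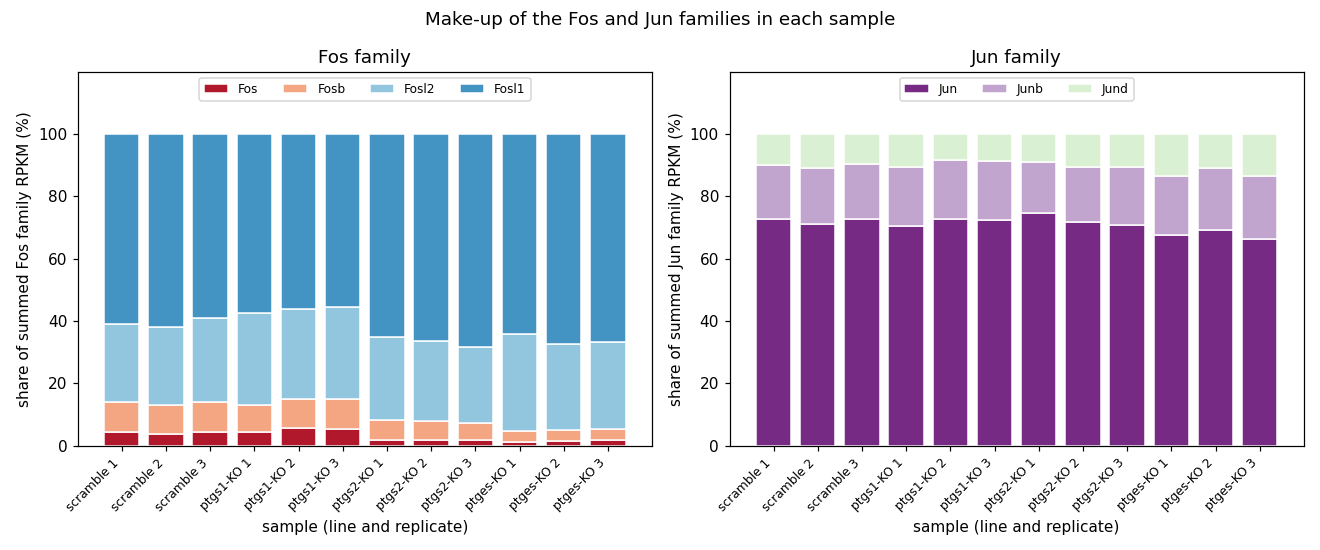
Share of each gene in the summed RPKM of the Fos family (left) and the Jun family (right), in percent, with a bar for each of the 12 samples. *Fos* and *Fosb* together take 13.1% to 15.0% in the scramble and *ptgs1*-KO samples, 7.14% to 8.26% in the *ptgs2*-KO samples, and 4.58% to 5.47% in the *ptges*-KO samples, and *Fosl1* is the largest part of every Fos family bar.

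*Jun* (chr4:95049034-95052222, minus strand) codes for c-Jun, the main partner of Fos proteins, and was the most abundant of the 10 genes. It reached 254.85, 217.81, and 242.63 RPKM in scramble, 244.06, 232.07, and 211.21 in *ptgs1*-KO, and 231.35, 214.54, and 206.98 RPKM in *ptgs2*-KO samples. These 9 samples overlapped from line to line. In *ptges*-KO samples *Jun* was at 181.35, 185.60, and 176.48 RPKM, below all of them, at 76.0% of the scramble mean (log2 fold change −0.39 ± 0.08, adjusted p = 0.00349). For *ptgs2*-KO against scramble cells the difference was −0.13, with a 95% interval from −0.30 to 0.04 (adjusted p = 0.327). *Junb*, which codes for a Jun protein with weaker activation than c-Jun, was measured at 60.15, 55.49, and 58.75 RPKM in scramble and at 65.28, 60.79, and 55.43 RPKM in *ptgs1*-KO samples. It was at 49.98, 51.86, and 54.54 RPKM in *ptgs2*-KO and at 50.61, 53.42, and 54.40 RPKM in *ptges*-KO samples, all under every scramble and *ptgs1*-KO value. The differences did not pass the test, with log2 fold changes of −0.15 in *ptgs2*-KO (95% interval −0.32 to 0.01) and −0.14 in *ptges*-KO cells (−0.30 to 0.03), both with an adjusted p of 0.209. *Jund*, which codes for the Jun protein that is present in most resting cells, ranged from 31.93 to 35.07 RPKM in scramble, 25.57 to 36.47 in *ptgs1*-KO, 28.14 to 31.90 in *ptgs2*-KO, and 29.77 to 36.49 RPKM in *ptges*-KO samples. It passed in no comparison of 2 lines, although without *ptgs1*-KO replicate 1 it was higher in *ptges*-KO than in *ptgs1*-KO cells (0.37, adjusted p = 0.0188), as it was with trends of length and GC content removed (0.44, adjusted p = 0.0105, and 0.0110 with the replicate block as well). Its 95% intervals against scramble reached from −0.45 to 0.29 over the 3 knockouts. The summed Jun family was at 330 ± 22.1 RPKM in scramble, 319 ± 26.8 in *ptgs1*-KO, 300 ± 8.94 in *ptgs2*-KO, and 268 ± 1.20 RPKM in *ptges*-KO cells.

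*Atf3* was the least abundant of the 10 genes. It ranged from 5.39 to 5.75 RPKM in scramble, 4.87 to 5.80 in *ptgs1*-KO, 4.47 to 4.89 in *ptgs2*-KO, and 4.71 to 4.84 RPKM in *ptges*-KO samples. The values of the *ptgs2*-KO and *ptges*-KO samples were below those of scramble, by −0.20 (95% interval −0.41 to 0.00) and −0.18 (−0.38 to 0.02) on the log2 scale, and neither passed the test (adjusted p = 0.190 and 0.183).

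*Egr1* (chr18:34859823-34864984, plus strand), a zinc finger factor whose gene responds to serum and ERK signals, was the only one of the 10 genes that rose in a knockout. It stood at 29.78, 31.24, and 32.80 RPKM in scramble, 32.21, 27.71, and 27.25 in *ptgs1*-KO, and 30.14, 25.28, and 25.60 RPKM in *ptgs2*-KO samples. In *ptges*-KO samples it was at 51.70, 41.84, and 42.98 RPKM, above every other sample. The mean was 146% of that of scramble (log2 fold change 0.52 ± 0.10, adjusted p = 0.00264). It was 0.43 without *ptges*-KO replicate 1 (adjusted p = 0.00938). In *ptges*-KO cells *Egr1* and *Fos*, both known to be induced by ERK signals, thus changed in opposite directions. *Ier2*, a short immediate early gene whose product acts in the nucleus, was at 55.02 to 63.70 RPKM in scramble, 49.84 to 59.79 in *ptgs1*-KO, 45.62 to 51.76 in *ptgs2*-KO, and 47.24 to 57.45 RPKM in *ptges*-KO samples. The *ptgs2*-KO samples lay below the scramble samples, but the log2 difference of −0.22 (95% interval −0.44 to −0.00) did not pass after adjustment (adjusted p = 0.178).

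*Dusp1* spans chr17:26505590-26562128 on the minus strand in GENCODE M21, which includes a transcript with an earlier start, so that the RefSeq start behind the sequence shown above lies inside this span. It was at 147.17, 131.57, and 141.76 RPKM in scramble and at 139.22, 136.62, and 123.11 RPKM in *ptgs1*-KO samples. Its values were 97.20, 105.30, and 102.23 RPKM in *ptgs2*-KO and 105.90, 106.68, and 114.68 RPKM in *ptges*-KO samples. Every sample of the latter 2 lines was below every sample of the former. *Dusp1* fell to 72.5% of the scramble mean in *ptgs2*-KO (log2 fold change −0.46 ± 0.07, adjusted p = 0.00156) and to 77.8% in *ptges*-KO cells (−0.36 ± 0.07, adjusted p = 0.00349). The difference between these 2 knockouts was 0.10, with a 95% interval from −0.06 to 0.26.

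**Figure D3:**
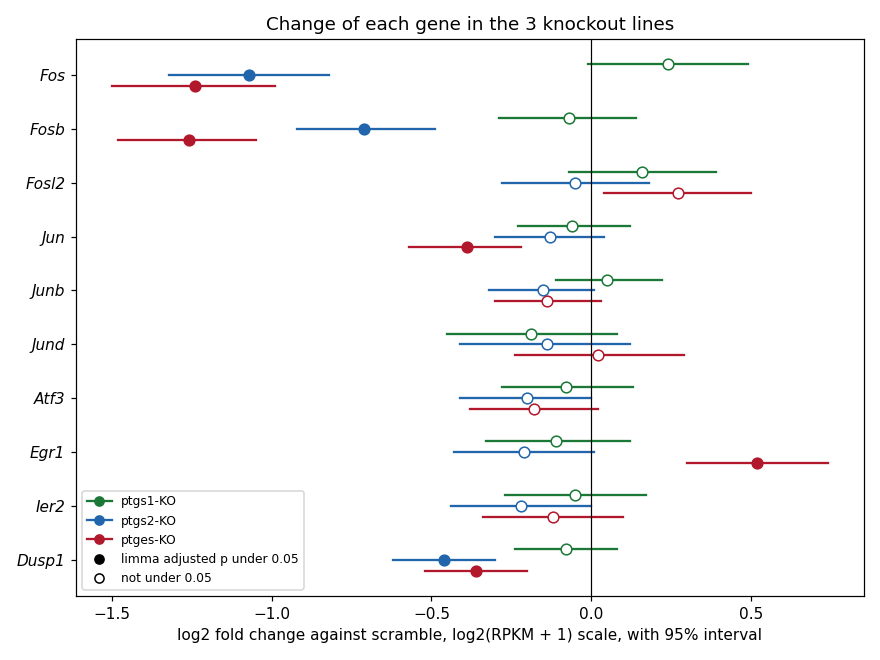
Log2 fold change against scramble cells on the log2(RPKM + 1) scale (horizontal axis) for the 10 genes (vertical axis) in the 3 knockouts; points are limma estimates, filled where the adjusted p is under 0.05, and lines are 95% intervals. *Fos*, *Fosb*, and *Dusp1* have filled points left of 0 in *ptgs2*-KO and *ptges*-KO cells, *Jun* only in *ptges*-KO cells, and *Egr1* has the only filled point right of 0.

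The knockouts were also compared with each other. Against *ptgs1*-KO cells, *ptgs2*-KO cells had lower *Fos* (log2 fold change −1.31), *Fosb* (−0.63), and *Dusp1* (−0.38), which makes 3 genes lower and 0 higher, beside 11.6% of all genes lower and 12.1% higher. Against the same cells, *ptges*-KO cells had lower *Fos* (−1.48), *Fosb* (−1.19), *Jun* (−0.34), and *Dusp1* (−0.28) and higher *Egr1* (0.63), which makes 4 lower and 1 higher, beside 17.0% of all genes lower and 13.2% higher. Between *ptges*-KO and *ptgs2*-KO cells, *Fosb* (−0.56) and *Jun* (−0.26) were lower and *Egr1* (0.73) was higher in *ptges*-KO cells, beside 9.84% of all genes lower and 6.76% higher. These calls are from the fit without pairing, and with the replicate number as a block *Fosl2* passed too (0.32, adjusted p = 0.0334, beside 0.0609 without the block). *Egr1* therefore differed between *ptges*-KO cells and each of the other lines, whereas its values in scramble, *ptgs1*-KO, and *ptgs2*-KO samples overlapped. The adjusted p of *Jun* in the last comparison was 0.0417, and it was 0.05 or more in 10 of 25 alternative settings, including each one that left out a *ptges*-KO sample (0.0615, 0.0909, and 0.135). *Dusp1* in *ptges*-KO against *ptgs1*-KO cells had an adjusted p of 0.0117, and of 0.0507 without *ptges*-KO replicate 2. With the 20 highest genes left out of the scaling, the share of higher genes among all calls in *ptges*-KO cells went from 45.2% to 30.9% against scramble, from 43.8% to 30.4% against *ptgs1*-KO, and from 40.7% to 28.2% against *ptgs2*-KO cells. The calls of the 10 genes named above kept their direction and passed under this scaling, median ratio scaling, and quantile normalization.

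The spread between replicates was compared with that of all genes tested. The residual SD of log2(RPKM + 1) within the lines had a median of 0.123 over the 10 genes and of 0.137 over all genes, and 8 of the 10 lay below the latter. *Atf3* (0.067), *Dusp1* (0.076), and *Junb* (0.077) were the least spread, at the 3.97, 7.13, and 7.62 percentiles of all genes. *Jund* (0.167) and *Fosl2* (0.142) were the most spread, at the 68.1 and 53.9 percentiles. *Fos* had a residual SD of 0.136 at the 49.5 percentile, so its replicates were as spread as those of a middling gene, and differences between lines took 97.1% of its variance. That share was 96.7% for *Fosb*, 90.5% for *Dusp1*, 87.7% for *Egr1*, and 80.6% for *Jun*, and it was lowest for *Ier2* (38.4%) and *Jund* (30.3%). These shares rest on the same values as the F test and were not set beside those of all genes. With so few samples in each line, the share is above 0 even where lines do not differ. Few reads stand behind the lowest levels. An estimated 137 to 474 reads per sample gave *Fos* and 118 to 177 gave *Atf3*, for which counting alone gives a coefficient of variation of up to 8.53% and 9.21%, whereas the others had at least 617 reads. Between replicates, that of *Atf3* ran from 1.37% in *ptges*-KO to 9.69% in *ptgs1*-KO cells. Its place as the least spread of the 10 genes therefore does not show a tightly held level. Adding 1 before the logarithm also narrows the spread of low values. Counting error does not include variation between cultures or libraries. The read estimates also take the values as RPKM and would differ under another scaling to a fixed total.

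Some samples stood high or low for several of the 10 genes at a time. In *ptgs1*-KO cells replicate 1 was highest for 8 genes and replicate 3 lowest for 8, and the widest gap was that of *Jund*, at 36.47 RPKM in replicate 1 and 25.57 RPKM in replicate 3. Replicate 3 is also the sample with the most *Rn45s*. Among scramble samples, replicate 2 was lowest for 7 genes. Levels over all genes shifted the same way. The median ratio of a sample to the geometric mean of all samples was 1.064, 1.038, and 0.938 in *ptgs1*-KO replicates 1 to 3. In scramble replicates 1 to 3 it was 1.007, 0.970, and 1.031. The counts of highest and lowest genes were not set beside such counts over all genes. Replicate 1 of *ptgs2*-KO and replicate 1 of *ptges*-KO cells were each the highest of their line for *Fosb*, *Fosl2*, and *Egr1* and the lowest for *Junb*, *Ier2*, *Atf3*, and *Dusp1*. The transcripts of the first 3 are 3782 to 6537 bases long and those of the other 4 are 1522 to 2313 bases long. The remaining genes did not split this way in both lines. *Fos* (2108 bases) was highest in *ptgs2*-KO replicate 1 and lowest in *ptges*-KO replicate 1, and *Jund* (1668 bases) was the reverse. *Jun* (3189 bases) was highest in *ptgs2*-KO replicate 1 and neither highest nor lowest in *ptges*-KO replicate 1. Over all genes tested, the longest 25% of transcripts deviated from the shortest 25% by 0.24 (log2) in *ptgs2*-KO replicate 1 and by 0.23 in *ptges*-KO replicate 1, against −0.16 to 0.09 in the other 10 samples. With trends of length and GC content removed, *Egr1* in *ptges*-KO against scramble cells was at 0.66 (adjusted p = 1.8e-05) and *Fosb* at −1.16 (adjusted p = 3.4e-07). Without *ptgs1*-KO replicate 3, *ptgs2*-KO replicate 1, and *ptges*-KO replicate 1, *Fos*, *Fosb*, and *Dusp1* were still lower in *ptgs2*-KO than in *ptgs1*-KO cells, and *Fosl2* and *Junb* passed as well. In this setting *Egr1* passed as lower in *ptgs2*-KO than in scramble cells (−0.29, adjusted p = 0.0393), in 1 of 25 settings. *Junb* was lower in *ptges*-KO than in *ptgs1*-KO cells (−0.22, adjusted p = 0.0306). Between *ptges*-KO and *ptgs2*-KO cells, *Fosl2* passed (0.27, adjusted p = 0.0482) and *Jun* lost its call.

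**Figure D4:**
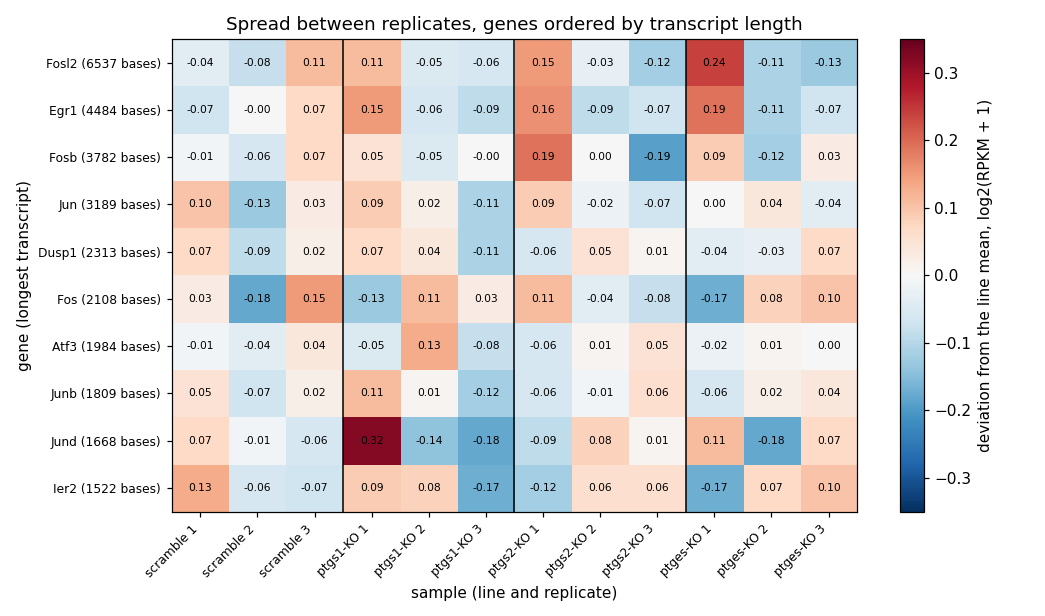
Deviation of each sample from the mean of its line on the log2(RPKM + 1) scale (color and printed value) for the 10 genes, ordered by transcript length from top to bottom, in the 12 samples (columns). The first replicates of *ptgs2*-KO and *ptges*-KO cells are red for the 3 longest transcripts and blue for *Junb* and *Ier2*, and *Jund* in *ptgs1*-KO replicate 1 has the largest deviation, 0.32.

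Other genes of the pathway were counted from lists, and each count is read against the share of all genes tested that passed, which was 4.65% higher and 4.61% lower in *ptgs1*-KO, 5.97% higher and 5.17% lower in *ptgs2*-KO, and 11.9% higher and 14.4% lower in *ptges*-KO cells against scramble. Of the other AP-1 and related zipper genes, 8 of 12 were tested, and the only calls against scramble were a fall of the large Maf factor *Maf* in *ptgs1*-KO cells (log2 fold change −0.90 ± 0.14, adjusted p = 9.6e-04) and, in *ptges*-KO cells, the rise of *Fosl1* and a fall of the small Maf factor *Mafk* (−0.35 ± 0.08, adjusted p = 0.00424). In *ptgs2*-KO cells 0 of the 8 passed. Of the other immediate early genes, 23 of 27 were tested. Against scramble, 3 were higher and 1 lower in *ptgs1*-KO, 1 higher and 4 lower in *ptgs2*-KO, and 2 higher and 7 lower in *ptges*-KO cells, with a median log2 fold change over the list of 0.20, −0.07, and −0.15, beside 0.01, 0.01, and −0.03 over all genes. *Klf2*, a zinc finger factor, rose (0.61 ± 0.13) and *Btg2*, an antiproliferative gene, fell (−0.93 ± 0.10) in *ptgs1*-KO cells. *Cyr61*, which codes for a matrix-associated signaling protein, rose in *ptgs2*-KO cells (0.51 ± 0.09), and the stress-responsive *Ier3* fell (−0.68 ± 0.09). In *ptges*-KO cells *Myc* rose (0.53 ± 0.09) and the kinase gene *Sgk1* fell (−0.62 ± 0.07). Their adjusted p-values lay between 7.2e-05 and 0.00924.

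Of the factors and kinases upstream of these genes, 20 of 21 were tested at the mRNA level. Against scramble 0 passed in *ptgs1*-KO cells, *Mapk3*, which codes for an ERK kinase, fell in *ptgs2*-KO cells (−0.30 ± 0.08, adjusted p = 0.0255), and *Map2k1*, which codes for a MEK kinase, rose in *ptges*-KO cells (0.32 ± 0.06, adjusted p = 0.00276). Phosphorylation, through which these kinases act, was not measured here. Of the other dual-specificity phosphatases, 10 of 11 were tested. In *ptgs1*-KO cells 3 were higher and 1 lower, among them *Dusp4*, a feedback phosphatase of ERK signaling (0.39 ± 0.11), and *Dusp5*, which acts on ERK in the nucleus (−0.35 ± 0.08). In *ptgs2*-KO cells 1 was higher, *Dusp9* (1.19 ± 0.12). *Dusp9* averaged 2.68 RPKM in these cells, 0.613 RPKM in scramble, 0.227 in *ptgs1*-KO, and 0.580 RPKM in *ptges*-KO cells. It thus passed the filter on low values only through the *ptgs2*-KO samples, and its call there is not independent of the filter. In *ptges*-KO cells 1 was higher, *Dusp14* (0.64 ± 0.15), and 4 were lower, *Dusp4* the most (−0.46 ± 0.11). *Dusp4* thus passed in opposite directions in *ptgs1*-KO and *ptges*-KO cells, with means of 175 and 97.0 RPKM beside 133 RPKM in scramble cells.

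Among genes known as targets of AP-1, calls were made in both directions. Of 16 listed, 11 were tested, with 0 higher and 2 lower in *ptgs1*-KO, 2 and 1 in *ptgs2*-KO, and 3 and 2 in *ptges*-KO cells. *Plau*, which codes for the urokinase that activates plasmin, averaged 3.79 RPKM in scramble and 0.383 RPKM in *ptgs1*-KO cells (log2 fold change −1.79 ± 0.13, adjusted p = 1.0e-06). It rose in *ptges*-KO cells (0.46 ± 0.13, adjusted p = 0.0209). *Spp1*, which codes for osteopontin, fell in *ptgs2*-KO (−0.56 ± 0.12, adjusted p = 0.00846) and *ptges*-KO cells (−1.13 ± 0.12, adjusted p = 2.2e-05).

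Handling of cultures can induce both immediate early and heat shock genes, and the latter were therefore counted beside them. Of 10 listed, 9 were tested, with 1 lower and 0 higher in *ptgs1*-KO, 5 higher and 0 lower in *ptgs2*-KO, and 5 higher and 0 lower in *ptges*-KO cells. Beside these counts, 5.97% of all genes were higher in *ptgs2*-KO and 11.9% in *ptges*-KO cells. The median log2 fold change of the list was −0.16, 0.29, and 0.25, and that of all genes was 0.01, 0.01, and −0.03. *Hsph1*, a chaperone gene, fell in *ptgs1*-KO cells (−0.25 ± 0.07, adjusted p = 0.0434). *Hspb1*, a small heat shock gene, was at 0.13 to 0.32 RPKM in scramble and at 3.69 to 4.95 RPKM in *ptgs2*-KO samples. It averaged 0.0267 RPKM in *ptgs1*-KO and 0.0667 RPKM in *ptges*-KO cells. *Hspb1* thus passed the filter on low values only through the *ptgs2*-KO samples, where it is among the 5 genes counted as higher. *Hspa8*, a constitutive chaperone gene, rose in *ptges*-KO cells (0.56 ± 0.10, adjusted p = 0.00118). The other 4 of the 9 passed in neither direction in *ptgs2*-KO cells, and likewise 4 in *ptges*-KO cells. The part of handling in the levels of *Fos*, *Fosb*, and *Dusp1*, which were lower in both lines, was not tested.

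Over the 12 samples, the genes with the pattern most like that of *Fos* were *Slc27a1* (Pearson r = 0.980 on log2(RPKM + 1)), *Scara5* (0.978), *Tfpi* (0.977), *Clu* (0.976), and *Socs3* (0.971). The 12 samples form 4 lines, so these values mainly describe the order of 4 means. *Socs3*, a feedback inhibitor of cytokine signaling, averaged 38.4 RPKM in scramble, 48.9 in *ptgs1*-KO, 25.0 in *ptgs2*-KO, and 22.0 RPKM in *ptges*-KO cells, and *Clu*, which codes for the secreted chaperone clusterin, averaged 153, 164, 47.1, and 39.1 RPKM. With the line means taken away, the most alike were *Zfp455* (0.905), *Eed* (0.901), *2610015P09Rik* (0.888), *Hspa1l* (0.878), and *Lyrm1* (0.873), so that none of the first 5 genes was among the latter. Each set holds the 5 highest values over all genes tested, from only 12 samples. Whether values this high exceed what such a selection gives by itself was not tested.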

How the data were processed

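Per the labels and the methods of the study, mRNA libraries of 12 samples were sequenced, and the labels give the 4 groups. The authors deposited RPKM values to 2 decimals. The sums per sample were nearly equal (878504 to 903881), so another scaling to a fixed total is possible. The submitters' processing notes name the build mm10. The aligner, counter, and annotation are not given in the sources used here. The labels name 2 library kits, and whether counting used strand is likewise not given. Every column of values was used.

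The 11282 genes whose mean was 1 RPKM or more were tested on log2(RPKM + 1), a pseudocount of 1, which understates changes of genes with low levels. limma 3.58.1 in R 4.3.3 (lmFit, contrasts, and eBayes with trend) fitted the 4 groups together, and p-values were two-sided and adjusted over all genes tested. Depth, which was not given, was estimated from the smallest steps between values of short genes (GENCODE M21 transcripts up to 1500 bases). Lengths were matched for 94.6% of the genes tested. Figures were drawn with matplotlib 3.10.9 in Python 3.11.15. The steps were tested on simulated data.

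The 10 genes and the lists were chosen with earlier results of these data known. Named were all 10, from each list the called gene with the largest rise and that with the largest fall in each knockout, and the 5 genes most like *Fos*. A result that this rule would name among the AP-1 targets is not reported here.

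Samples carry replicate numbers without a stated link. Deviations from the line means correlated above 0.1 in every same-numbered pair only for *ptgs2*-KO and *ptges*-KO cells (r = 0.57, 0.11, and 0.25). The same number gave the best match for 2 of the 3 samples. Long against short transcripts deviated by 0.24, −0.08, and −0.16 in *ptgs2*-KO and by 0.23, −0.08, and −0.15 in *ptges*-KO replicates 1 to 3. A link by culture or library preparation was not tested. The main fit has no pairing, and the block, drawn from the same data, is an alternative.

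Alternatives were a pseudocount of 0.1, no filter, a mean of at least 10 RPKM, the replicate block, quantile normalization, median ratio scaling, a fit of only the 2 groups compared, eBayes without trend, a minimum log2 fold change of 1 in size, and each sample left out in turn. Removal of length and GC trends (loess, span 0.3), also with the block, removal of the 20 highest genes, the block in the 2 groups alone, and removal of the 3 samples with the most *Rn45s* of their knockout line were added after the data were seen.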

Additional observations from a re-analysis of the deposited data

Results flagged for a closer look

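The effects of different knockouts on the same gene differed for 5 of the 10 genes, by the direct limma comparison of 2 knockouts, in which the shared scramble samples cancel. Over all genes tested, 12.1% were higher and 11.6% lower in *ptgs2*-KO than in *ptgs1*-KO cells, 13.2% and 17.0% in *ptges*-KO than in *ptgs1*-KO cells, and, for *ptges*-KO minus *ptgs2*-KO, 6.76% and 9.84%. All values are differences of log2(RPKM + 1), with p adjusted over all genes tested, and the 3 samples of each line did not overlap with those of the other. For *Fos* the effect was lower in *ptgs2*-KO than in *ptgs1*-KO cells by −1.31 (adjusted p = 3.6e-06) and in *ptges*-KO than in *ptgs1*-KO cells by −1.48 (7.8e-07). For *Fosb* the differences were −0.63 between *ptgs2*-KO and *ptgs1*-KO (4.9e-04), −1.19 between *ptges*-KO and *ptgs1*-KO (1.5e-06), and −0.56 for *ptges*-KO minus *ptgs2*-KO cells (0.00198). For *Jun* they were −0.34 between *ptges*-KO and *ptgs1*-KO (0.00727) and −0.26 for *ptges*-KO minus *ptgs2*-KO cells (0.0417). *Egr1* differed by 0.63 between *ptges*-KO and *ptgs1*-KO (5.3e-04) and by 0.73 between *ptges*-KO and *ptgs2*-KO cells (3.0e-04). For *Dusp1* the difference was −0.38 between *ptgs2*-KO and *ptgs1*-KO (0.00201) and −0.28 between *ptges*-KO and *ptgs1*-KO cells (0.0117).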

How the results depend on the processing

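The log2 fold changes that passed the test were recomputed in 455 cases, of which 444 kept direction and call, 11 kept the direction but not the call, and 0 reversed. *Jun* in *ptges*-KO against *ptgs2*-KO cells lost its call in 10 of 25 settings (−0.32 to −0.22, adjusted p 0.00737 to 0.149), 7 of which leave out 1 sample (scramble replicate 3, *ptgs1*-KO replicate 2, *ptgs2*-KO replicate 1 or 2, or any of *ptges*-KO), and *Dusp1* in *ptges*-KO against *ptgs1*-KO cells lost it without *ptges*-KO replicate 2 (adjusted p = 0.0507). With a log2 fold change of at least 1 in size also required, the genes counted fell by construction to 1 (*Fos*) in *ptgs2*-KO and 2 (*Fos* and *Fosb*) in *ptges*-KO cells against scramble, to 1 and 2 against *ptgs1*-KO cells, and to 0 between *ptges*-KO and *ptgs2*-KO cells. In the same order, the counts over all 11282 genes were 40 higher and 71 lower, 74 and 145, 104 and 174, 129 and 232, and 83 and 112. Between *ptgs2*-KO and *ptgs1*-KO cells 5 genes passed with quantile normalization and 5 without the 3 samples with the most *Rn45s* of their line, *Fosl2* and *Junb* being added in both. Over all genes, 1751 were higher and 1492 lower with quantile normalization. Without those samples 1152 were higher and 1839 lower, beside 1360 and 1305 in the main fit. The cause of the added calls was not tested. Leaving out 1 sample gave 0 genes in *ptgs1*-KO, 3 in *ptgs2*-KO, and 5 in *ptges*-KO cells against scramble, 3 to 4 and 4 to 6 against *ptgs1*-KO cells, 2 to 3 between *ptges*-KO and *ptgs2*-KO cells, and 5 to 6 by the F test.

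The replicate block raised the count from 3 to 4 between *ptges*-KO and *ptgs2*-KO cells and from 5 to 6 in *ptges*-KO cells against scramble, in both by *Fosl2*, and it changed no other call between 2 lines. Over all genes the block gave 783 higher and 1228 lower between *ptges*-KO and *ptgs2*-KO cells, beside 763 and 1110 without it. For *ptges*-KO against scramble cells it gave 1387 and 1712, beside 1342 and 1627. *Fosl2* in *ptges*-KO cells passed in 4 of 25 settings against scramble (0.15 to 0.35, adjusted p 0.00127 to 0.290) and in 8 of 26 against *ptgs2*-KO cells (0.20 to 0.43, adjusted p 3.5e-04 to 0.171). Without the 20 highest genes *Junb* passed as lower in *ptges*-KO against scramble cells (adjusted p = 0.0269). *Fos* and *Atf3* could not be tested at a mean of at least 10 RPKM. The depth limits *Fos* and *Atf3* the most.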
